A study of Mus musculus with 4 samples.

Results

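The genes described here are the melanocortin and feeding peptides of the hypothalamus and their receptors: Agrp, Npy, Pomc, Cartpt, Mc3r, Mc4r, Lepr, Ghsr, Npy1r and Npy2r. These 10 genes of 32285 measured features were chosen by name, and all 10 had UMIs in neurons. Cell types carry the names of the deposited annotation, in which Neurons_1 is the main neuronal cluster and NPY/AgRP, POMC/CART, CART_1, MCH, Orexin+, GABA and the like are its sub-clusters. UMIs (unique molecular identifiers, each marking 1 captured transcript) were summed per library over every cell type. Levels are given as CPM, the UMIs of a gene per 1000000 UMIs of that cell type in that library. The study sequenced nuclei from the snap-frozen hypothalamus of adult male mice on a C57/BL6NCr background, either wild type (WT) or TRα1+m, which are heterozygous for the R384C change in thyroid hormone receptor α1 and carry it in every cell. Of 12 mice, 6 were of each genotype, and 3 of a genotype were pooled per library, so that 4 libraries (n = 2 per genotype) were made in 2 experimental repeats of 1 WT and 1 TRα1+m library each. The change is a point mutation, and counts per gene cannot check it. Values of a gene in the 4 libraries are given below in the order WT of repeat 1, WT of repeat 2, TRα1+m of repeat 1 and TRα1+m of repeat 2.

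In the arcuate nucleus, a population of neurons makes agouti-related peptide (Agrp) together with neuropeptide Y (Npy) and drives feeding. A neighbouring population makes pro-opiomelanocortin (Pomc), the precursor of α-MSH, and holds feeding back. α-MSH acts on the melanocortin receptors Mc3r and Mc4r, at which AgRP opposes it. Leptin from fat reaches both populations through Lepr, ghrelin from the stomach acts through Ghsr, and NPY acts through Npy1r and Npy2r, the latter known as a receptor by which NPY neurons restrain their own release. Cartpt encodes CART, a peptide that many hypothalamic neurons make beside another transmitter.

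The libraries held 11976 to 16435 annotated nuclei, 56386 in all, with 47260127 to 59112785 UMIs per library and a median of 2904 to 4018 UMIs per nucleus. Both repeat 2 libraries had the higher medians, 4018 and 3381.5 against 3037.5 and 2904. Barcodes found in more than 1 library numbered 309, 0.551% of those annotated. Free RNA, released from broken cells and captured with every nucleus, gives UMIs of abundant peptide genes in cells that do not make them, and oligodendrocytes served as its gauge. In oligodendrocytes, Agrp measured 33.2, 12.9, 35.5 and 17.4 CPM, Npy 63.3, 28.7, 69.8 and 24.6 CPM, Pomc 37.0, 40.5, 41.4 and 27.3 CPM, and Cartpt 132, 108, 114 and 40.8 CPM. A nucleus was counted as above free RNA for a peptide when it held at least 5 UMIs of it and at least 10 times the oligodendrocyte CPM of its library. The richest oligodendrocyte held 2, 15, 11 and 16 Pomc UMIs and 3, 18, 5 and 4 Cartpt UMIs, so a few peptide-rich nuclei enter the gauge. Intervals over nuclei cover counting error only.

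Of the peptides, Agrp and Npy were high in 1 sub-cluster of neurons, Pomc in another, and Cartpt in several. The receptors were uneven across cell types: Lepr and Npy2r were highest in the NPY/AgRP sub-cluster and Npy1r in the POMC/CART sub-cluster, while Mc3r, Mc4r and Ghsr were low in every cell type. Since the cell types were clustered from these same nuclei, levels across cell types are a description and carry no test.

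**Figure D1:**
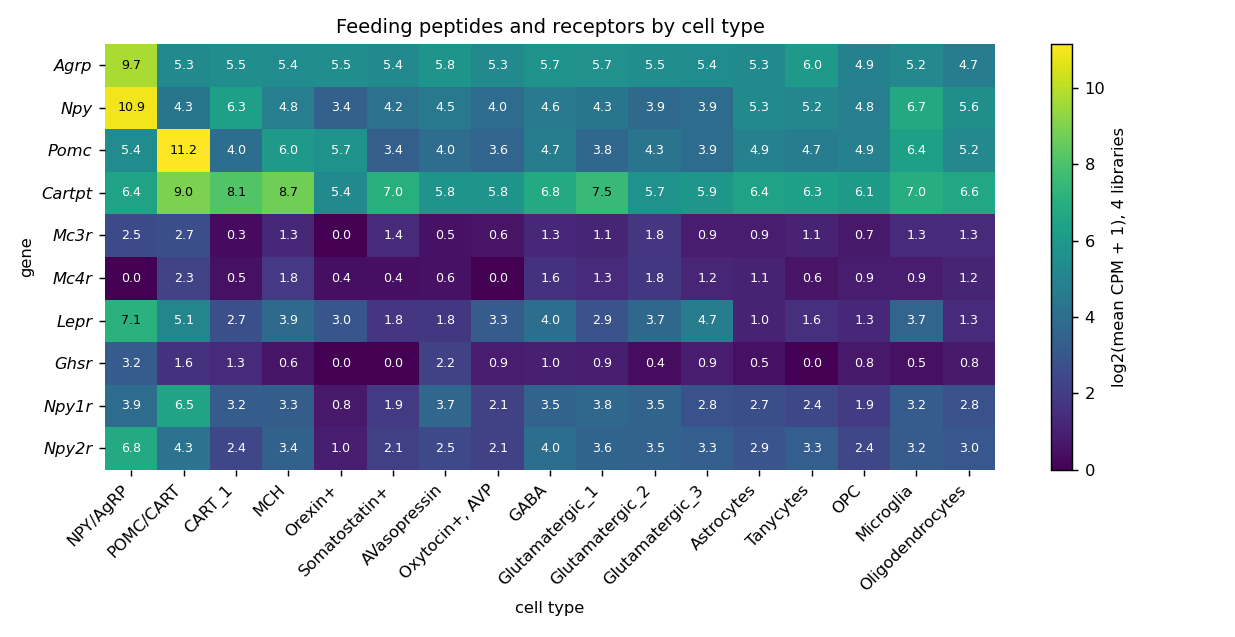
Level of each gene (rows) in each of the 17 cell types with at least 10 nuclei in every library (columns), as log2 of the mean CPM over 4 libraries plus 1, printed in each cell and shown by colour. Agrp, Npy, Lepr and Npy2r peak in NPY/AgRP, Pomc and Npy1r in POMC/CART, and Cartpt is high in POMC/CART, MCH and CART_1, while Mc3r, Mc4r and Ghsr stay low in every column.

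The NPY/AgRP sub-cluster held 135, 160, 105 and 110 nuclei, 510 in all. Beside the peptides, it showed the markers Otp, a transcription factor of arcuate neurons, at 39.5 CPM against 6.51 CPM in POMC/CART, and Acvr1c, an activin receptor, at 193 against 27.5 CPM. In GABA neurons these 2 genes measured 6.97 and 11.6 CPM, and in oligodendrocytes 13.8 and 6.86 CPM. The GABA genes Slc32a1 and Gad2 measured 73.5 and 196 CPM, below the 149 and 266 CPM of GABA neurons. Summed, the 4 markers came to 414 to 588 CPM against 336 to 528 CPM in GABA neurons. The ranges overlapped, though the sum was higher in NPY/AgRP within each library. Otp and Acvr1c thus bear out the label beside POMC/CART, GABA neurons and oligodendrocytes, and other neurons were not compared. The GABA genes do not set it apart from GABA neurons. Summed pituitary markers came to 2.27 to 13.8 CPM, with 4 of 10 at 0.

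Agrp measured 418, 1261, 500 and 1248 CPM in NPY/AgRP nuclei, from 236, 1094, 220 and 708 UMIs. Npy measured 412, 2988, 593 and 3639 CPM, from 233, 2593, 261 and 2065 UMIs. For both peptides the low pair was the WT and TRα1+m libraries of repeat 1 and the high pair those of repeat 2, so the genotypes overlapped. Every NPY/AgRP library stood above every library of the next cell type, Tanycytes for Agrp (63.3 ± 9.93 CPM, SD, n = 4 libraries) and Microglia for Npy (104 ± 120 CPM, SD, n = 4). Over oligodendrocytes, the means were 34.6 times higher for Agrp and 40.9 times higher for Npy.

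Most nuclei of this sub-cluster carried both peptides, more of them in repeat 2. At least 1 UMI of Agrp was found in 89.6% of the 510 nuclei and of Npy in 87.1%, against 4.03% and 7.43% of oligodendrocytes, whose nuclei were shallower (medians of 1493 to 1811.5 against 3797 to 5113 UMIs). After each nucleus was thinned to 900 UMIs, the shares were 51.2% and 59.6%, against 2.20% and 4.32%. Both peptides were found in 405 nuclei (79.4%), and neither in 14 (2.75%). The median nucleus held 1, 6, 2 and 6 Agrp UMIs and 1, 13, 2 and 17.5 Npy UMIs in the 4 libraries. The step between repeats thus lay in the typical nucleus rather than in a few rich ones, and the 10% of nuclei richest in Npy held only 20.8 to 36.5% of its UMIs.

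Few nuclei outside the sub-cluster passed the threshold for Agrp. Of 210 nuclei above free RNA for Agrp, 192 (91.4%) were NPY/AgRP and 13 were GABA. For Npy, 263 of 347 (75.8%) were NPY/AgRP, and the others included 33 GABA nuclei, 9 CART_1 nuclei, 12 nuclei of the small cluster Neurons_2, 852 of whose 864 nuclei came from the TRα1+m library of repeat 2, and 17 labelled Microglia. All 17 of the latter came from the same library, where they held 137 of the 174 Npy UMIs of that label. They held 0 UMIs of the microglial genes C1qa and Cx3cr1, whereas the other nuclei of that label in that library had 1071 CPM of Cx3cr1. In CART_1 as a whole, Npy measured 34.2, 98.7, 47.9 and 127 CPM, above oligodendrocytes only in the libraries of repeat 2. Against GABA neurons (17.6, 19.7, 27.4 and 25.7 CPM), Npy in CART_1 was higher in each library. Without nuclei above free RNA for a peptide that does not name their cell type, it measured 33.6, 89.6, 47.9 and 112 CPM.

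Agrp was also found at a low level in neurons of other kinds and in other glia. Tanycytes had 64.4, 50.2, 64.2 and 74.4 CPM, Astrocytes 43.3, 27.3, 48.7 and 32.5 CPM, and Microglia 47.0, 24.5, 48.3 and 27.6 CPM. Each was above oligodendrocytes in each library. In GABA neurons Agrp measured 59.9, 37.2, 62.1 and 42.8 CPM, likewise above oligodendrocytes in each library. Npy in the same neurons measured 17.6, 19.7, 27.4 and 25.7 CPM, below oligodendrocytes in the libraries of repeat 1 and WT of repeat 2. The number of Npy UMIs per Agrp UMI was 0.987, 2.37, 1.19 and 2.92 in NPY/AgRP nuclei, 1.91, 2.23, 1.97 and 1.41 in oligodendrocytes, and 0.294, 0.531, 0.440 and 0.600 in GABA neurons. The ratio was lower in GABA neurons than in both other cell types in each library, whereas in the WT library of repeat 2 NPY/AgRP nuclei and oligodendrocytes were close. The Agrp gene model (GRCm38, chr8:105566698-105637393, minus strand) spans 70696 bases in its longest transcript and 1601 in its shortest, overlaps Gm5914 on the same strand and Ctcf, Gm38250 and Ripor1 on the other, and was counted with its introns. Whether reads from the long model contribute to the level in other neurons and in glia was not tested.

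**Figure D2:**
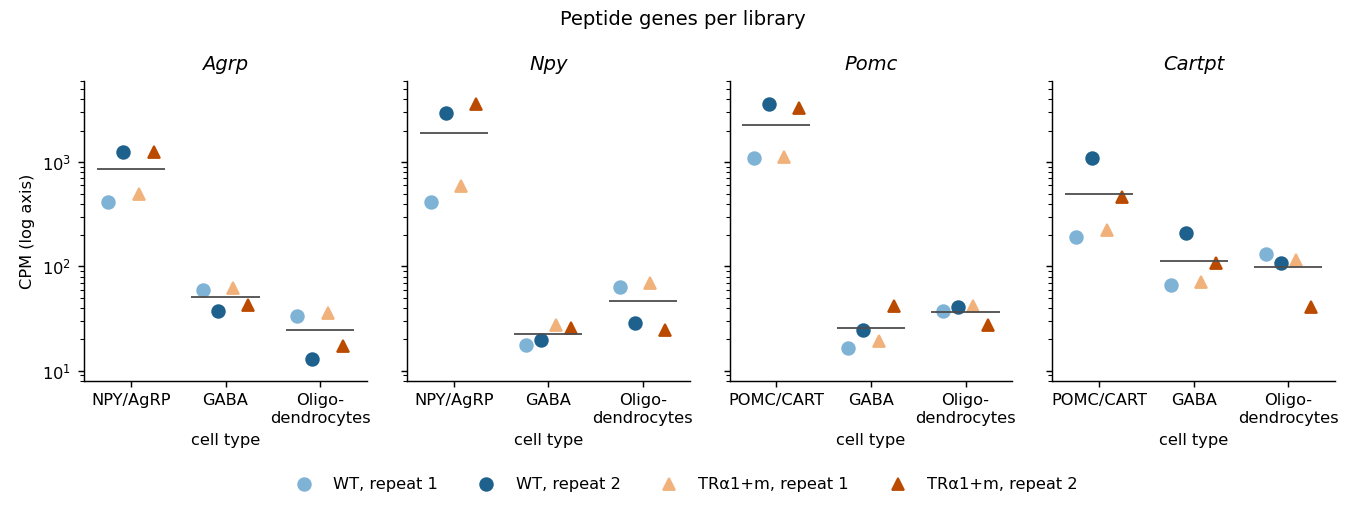
CPM (log axis) of the 4 peptide genes in the sub-cluster named after them, in GABA neurons and in oligodendrocytes, with 1 point per library and a line at the mean of 4 libraries. In NPY/AgRP and POMC/CART the dark repeat 2 points lie above the light repeat 1 points for both genotypes, while for Agrp and Npy in oligodendrocytes they lie below.

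The POMC/CART sub-cluster held 185, 237, 181 and 165 nuclei, 768 in all. Pomc measured 1104, 3595, 1109 and 3302 CPM, from 797, 4487, 768 and 2605 UMIs. As for Agrp and Npy, the repeat 2 libraries were high and those of repeat 1 low, and the genotypes overlapped. The mean of 2277 ± 1357 CPM (SD, n = 4) was 62.3 times that of oligodendrocytes, and every library stood above every library of the next cell type, Microglia (81.0 ± 77.7 CPM, SD, n = 4). Summed pituitary markers, which bear on Pomc because pituitary corticotrophs also make it, came to 5.54 to 10.4 CPM, with 3 of 10 at 0.

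Unlike NPY/AgRP nuclei, those of POMC/CART differed widely among themselves. The median nucleus held 0 Pomc UMIs in every library, and 66.5%, 58.2%, 57.5% and 61.8% of nuclei held none. The 10% of nuclei richest in Pomc held 67.5%, 63.2%, 68.9% and 58.1% of its UMIs, and the richest single nuclei held 54, 312, 60 and 123. Neither Pomc nor Cartpt was found in 351 of the 768 nuclei (45.7%). With thinning to 900 UMIs, 28.8% of nuclei held a Pomc UMI (95% exact interval 25.6 to 32.1%), against 2.95% of oligodendrocytes.

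**Figure D3:**
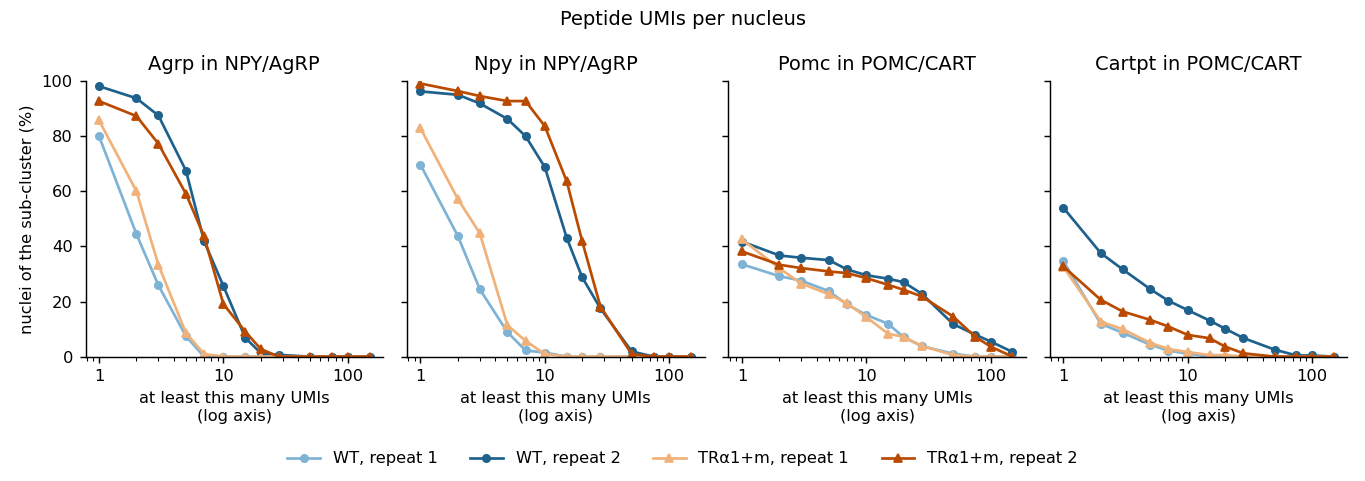
Share of nuclei of the sub-cluster (percent) with at least a given number of UMIs (log axis), 1 line per library, for Agrp and Npy in NPY/AgRP and for Pomc and Cartpt in POMC/CART. Agrp and Npy start at 69.6 to 99.1% of nuclei and fall steeply, with repeat 2 shifted to the right, while Pomc starts at 33.5 to 42.5% and falls slowly to nuclei with over 50 UMIs.

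Nuclei above free RNA for Pomc numbered 44, 83, 41 and 51 in POMC/CART, 219 in all. A further 94 such nuclei (30.0% of 313) lay under other labels, 40 of them GABA. Of the 65 nuclei with at least 50 Pomc UMIs, 10 lay outside POMC/CART. None of the 313 held UMIs of 2 or more pituitary genes, 11 held 1, and Tbx19, which marks corticotrophs, was at 0 in them. Agrp and Pomc were both above free RNA in 1 nucleus.

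The 219 nuclei were compared with the 549 others of POMC/CART, a split made on Pomc itself and added after seeing the data. Lepr measured 157, 82.3, 64.5 and 51.8 CPM in the nuclei above free RNA for Pomc and 13.7, 6.56, 5.92 and 2.08 CPM in the others. It was higher in the former in each library. Npy2r, at 39.0 ± 16.1 against 7.16 ± 1.11 CPM (SD, n = 4), and Npy1r, at 128 ± 35.1 against 72.3 ± 27.9 CPM, were also higher in 4 of 4 libraries. Cartpt measured 1139 ± 929 against 122 ± 69.4 CPM. Lepr was thus largely held by the nuclei with Pomc, whereas Npy1r was present in both kinds. Mc3r and Mc4r went the other way, at 2.67 against 6.89 CPM and 1.86 against 5.03 CPM, from few UMIs.

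The 2 kinds of nuclei differed in other genes too. Of 4 transcription factors of POMC neurons, Isl1 measured 94.2 against 57.4 CPM and was higher with Pomc in each library. Prdm12 measured 14.2 against 0.982 CPM and was higher in 3 of 4 libraries, from 0 to 10 UMIs. Tbx3, at 44.1 against 40.6 CPM, was higher in 2 of 4. Nr5a2 measured 21.2 against 108 CPM and was lower with Pomc in each library. The GABA gene Slc32a1 (19.7 against 52.6 CPM) and the general neuronal gene Syt1 (541 against 1526 CPM) were lower as well. The other GABA gene, Gad2, went the other way, at 168 against 113 CPM, and was higher with Pomc in 3 of 4 libraries. Median UMIs per nucleus were 4346, 5539, 4519 and 6067 with Pomc and 3430, 4584.5, 3376 and 4029.5 without. Of POMC/CART nuclei, 28.5% thus passed this threshold for Pomc. A low share was not particular to this sub-cluster, as 192 of the 510 NPY/AgRP nuclei passed for Agrp and 263 for Npy. In repeat 1, 10 of 135 (WT) and 9 of 105 (TRα1+m) NPY/AgRP nuclei passed for Agrp. The part of free RNA, of transcripts missed at this depth and of mixed clusters in the other POMC/CART nuclei was not tested.

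**Figure D4:**
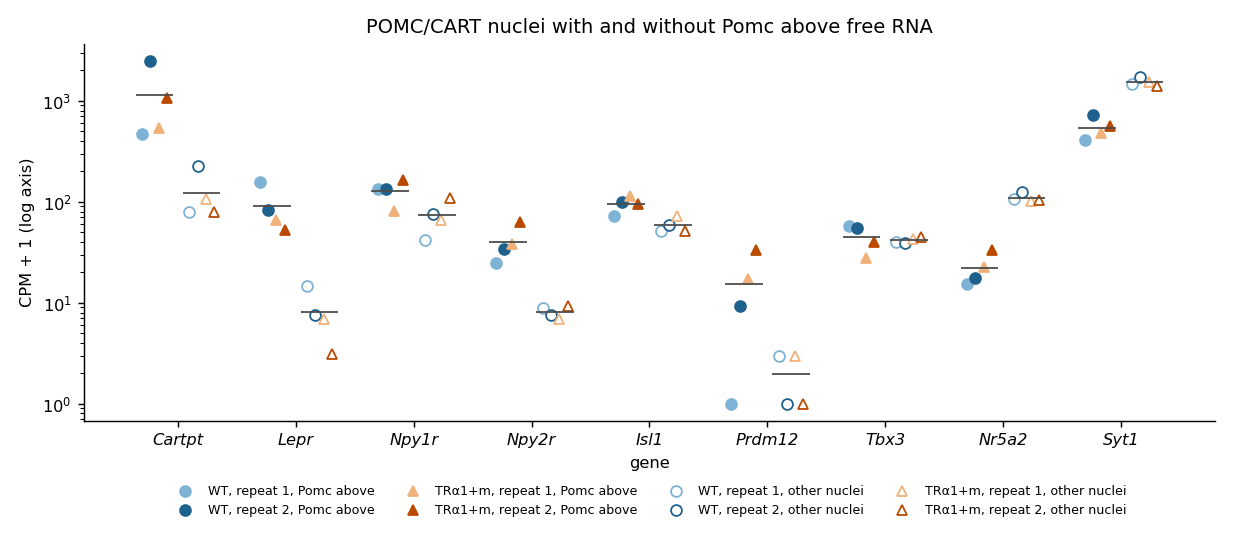
CPM plus 1 (log axis) of 9 genes in POMC/CART nuclei above free RNA for Pomc (filled) and in the other POMC/CART nuclei (open), 1 point per library and a line at the mean. Cartpt, Lepr, Npy1r, Npy2r and Isl1 are higher in the filled points of each library, and Nr5a2 and Syt1 lower.

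Cartpt was the least confined of the peptides. In POMC/CART it measured 193, 1100, 224 and 467 CPM, from 139, 1373, 155 and 368 UMIs. Next came the sub-cluster labelled MCH (420 ± 303 CPM, SD, n = 4), CART_1 (279 ± 215 CPM) and Glutamatergic_1 (181 ± 112 CPM), and the libraries of each overlapped those of its neighbour in this order. Over oligodendrocytes, the mean in POMC/CART was only 5.02 times higher. Of 713 nuclei above free RNA for Cartpt, 85 were POMC/CART, and 77 of these were also above free RNA for Pomc.

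CART_1 and MCH nuclei carried Cartpt in different ways. In CART_1 (154, 596, 137 and 227 CPM) the median nucleus held 0, 3, 0 and 1 UMIs, and the richest 10% of nuclei held 30.1 to 47.7% of them. In MCH (133, 721, 187 and 641 CPM) the median was 0 in each library, and the richest 10% held 86.8 to 96.8%. Markers of other cell types were also found under the MCH label. Its summed endothelial and mural markers (5 genes, 0 at 0) came to 723, 2140, 1697 and 3176 CPM, against 11.2 to 21.5 CPM in CART_1. Its astrocyte markers (4 genes, 0 at 0) came to 701 to 1183 CPM, against 221 to 381 CPM. Their part in the difference was not tested. Nuclei rich in Pmch, the gene of melanin-concentrating hormone, were counted among all neurons and not within the MCH label. Of the neurons above free RNA for Cartpt, 148 held at least 20 Pmch UMIs and 537 did not. Of nuclei with at least 20 Pmch UMIs (55, 146, 75 and 89), 20.0%, 46.6%, 32.0% and 50.6% were above free RNA for Cartpt, against 0.189%, 3.65%, 0.237% and 2.67% of the other neurons. Their Cartpt level was 1067, 3181, 1380 and 2625 CPM against 63.5, 188, 66.4 and 101 CPM.

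Among the hormone receptors, Lepr was highest in NPY/AgRP nuclei, at 166, 143, 152 and 95.2 CPM from 94, 124, 67 and 54 UMIs. The genotypes overlapped, and unlike the peptides it was lower in the libraries of repeat 2. POMC/CART followed at 55.4, 36.0, 21.7 and 21.5 CPM, below each NPY/AgRP library, then Glutamatergic_3 (24.6 ± 4.62 CPM, SD, n = 4) and GABA (15.2 ± 4.39 CPM), each overlapping its neighbour. In oligodendrocytes Lepr was at 0.396 to 2.95 CPM. A Lepr UMI was found in 41.6% of NPY/AgRP nuclei (11.8% after thinning), in 10.8% of POMC/CART nuclei (3.13%), and in 0.261% of oligodendrocytes (0.130%).

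Ghsr, the ghrelin receptor, was scarce. In NPY/AgRP it measured 3.54, 8.07, 2.27 and 19.4 CPM from 2, 7, 1 and 11 UMIs. The 2 libraries of repeat 1 lay below the level of 3 UMIs (5.31 and 6.82 CPM), and the next cell type, AVasopressin (3.49 ± 1.79 CPM, SD, n = 4), overlapped. Of NPY/AgRP nuclei, 3.92% held a UMI (0.784% after thinning), against 0.130% of oligodendrocytes (0.065%). Each NPY/AgRP library stood above the 0.370 to 1.54 CPM of oligodendrocytes.

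Of the NPY receptors, Npy2r was highest in NPY/AgRP nuclei, at 58.4, 136, 109 and 148 CPM from 33, 118, 48 and 84 UMIs. Each library stood above the 12.5, 16.8, 14.4 and 29.2 CPM of POMC/CART. Npy1r had the opposite order. It was highest in POMC/CART, at 67.9, 97.7, 69.3 and 131 CPM from 49, 122, 48 and 103 UMIs, and lower in NPY/AgRP, at 7.08, 18.4, 9.09 and 22.9 CPM, which overlapped Glutamatergic_1 (12.8 ± 3.83 CPM, SD, n = 4). Oligodendrocytes had 3.96 to 9.65 CPM of Npy2r and 4.75 to 7.33 CPM of Npy1r.

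The melanocortin receptors were close to their floor. Mc3r measured 2.77, 4.01, 5.78 and 8.87 CPM in POMC/CART (2, 5, 4 and 7 UMIs) and 1.77, 6.91, 4.54 and 5.29 CPM in NPY/AgRP (1, 6, 2 and 3 UMIs). In oligodendrocytes it was at 0.396 to 2.31 CPM, below every POMC/CART library and overlapping NPY/AgRP. Mc4r measured 2.77, 3.20, 4.33 and 5.07 CPM in POMC/CART from 2 to 4 UMIs per library, each above the 0.396 to 2.31 CPM of oligodendrocytes. MCH (2.57 ± 1.75 CPM, SD, n = 4), Glutamatergic_2 (2.52 ± 1.02 CPM) and GABA (2.03 ± 0.593 CPM) followed and overlapped in that order. In NPY/AgRP nuclei no Mc4r UMI was found, 0 of 510 nuclei, which allows a share of nuclei with a UMI of up to 0.588% and sets no limit on nuclei that express the gene. Over all Neurons_1 nuclei, which gave 253 Mc3r and 312 Mc4r UMIs, Mc3r measured 0.971, 2.05, 1.03 and 1.85 CPM and Mc4r 1.61, 2.28, 1.48 and 1.88 CPM, no higher than the top of the oligodendrocyte range.

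**Figure D5:**
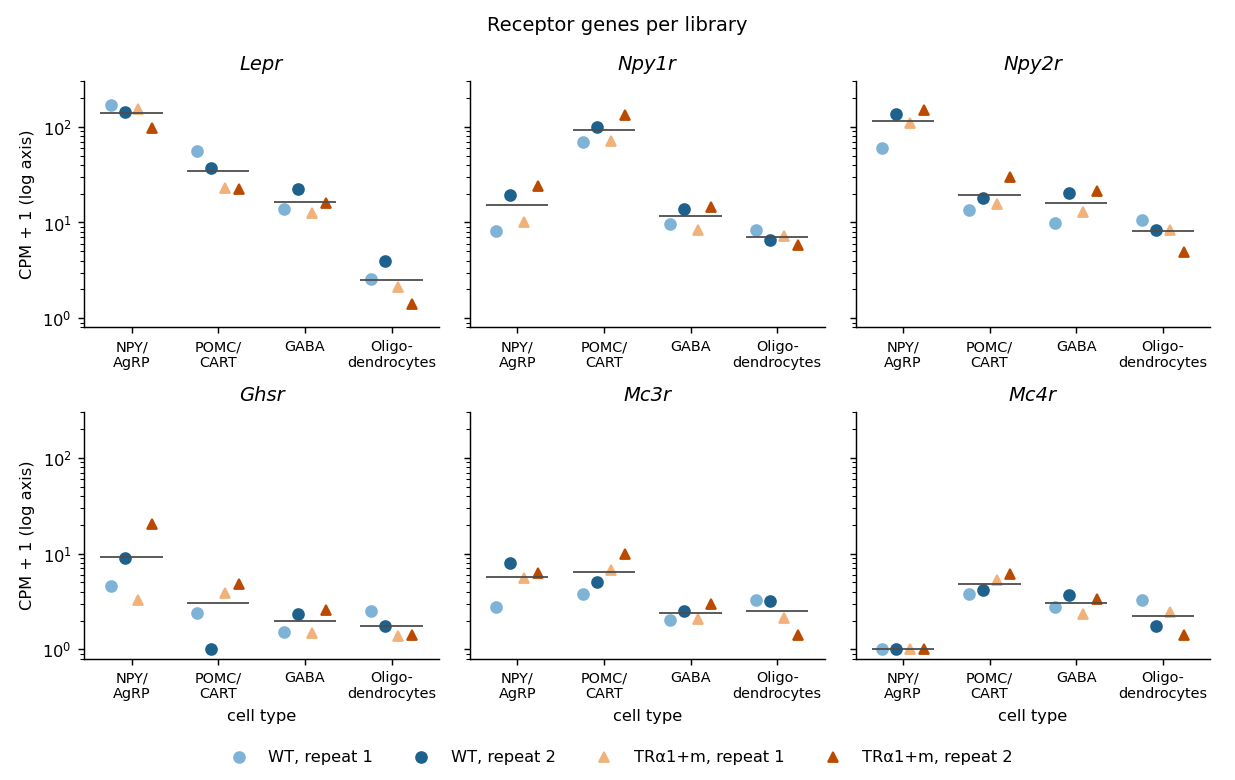
CPM plus 1 (log axis) of the 6 receptor genes in NPY/AgRP, POMC/CART and GABA neurons and in oligodendrocytes, 1 point per library and a line at the mean of 4 libraries. Lepr and Npy2r lead in NPY/AgRP and Npy1r in POMC/CART, each above every oligodendrocyte library, while Mc3r overlaps the oligodendrocyte values in NPY/AgRP, Ghsr in NPY/AgRP (mean 8.32 CPM) lies above them (0.370 to 1.54 CPM), and Mc4r has no UMI in NPY/AgRP.

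The genes most alike in pattern were ranked by Pearson's r of log2(mean CPM + 1) over the 17 cell types, among 14048 genes, as a description in which all points share the 4 libraries. For Agrp they were Gm20647 (r = 0.97) and Corin (r = 0.93, 243 CPM in NPY/AgRP), a protease. Npy was most like Gm20647 (r = 0.84) and Atp6v0d1 (r = 0.83), Pomc like Rbbp7 (r = 0.85) and Vgll3 (r = 0.84), and Cartpt like Ddx49 (r = 0.79) and Tac2 (r = 0.76). Lepr was most like Smc6 (r = 0.90) and Trpc6 (r = 0.88), Npy2r like Npffr2 (r = 0.89), and Npy1r like Npy5r (r = 0.92), another NPY receptor, at 69.9 CPM in POMC/CART. Npy5r lies on chr8:66679965-66688128 (GRCm38, minus strand), 9064 bases from Npy1r. Gm20647 (chr5:72316354-72368048, plus strand) lies within the span of Corin (chr5:72300025-72504473, minus strand), so both share a locus. Atp6v0d1 (chr8:105524465-105566047, minus strand) lies just downstream of Agrp (chr8:105566698-105637393, minus strand). Whether reads of neighbouring genes add to each other was not tested. For the scarce receptors the partners were 1500009L16Rik and Arhgap36 (Mc3r, r = 0.89 and 0.86), Mrgbp and Gm47757 (Mc4r, r = 0.86 and 0.79), and Gm11457 and Npffr2 (Ghsr, both r = 0.79).

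The other gene positions on GRCm38 were Npy chr6:49822710-49829507 (plus strand), Pomc chr12:3954951-3960642 (plus), Cartpt chr13:99898489-99901091 (minus), Mc3r chr2:172248492-172251114 (plus), Mc4r chr18:66857704-66860506 (minus), Lepr chr4:101717404-101815352 (plus), Ghsr chr3:27371351-27378010 (plus), Npy1r chr8:66697192-66706792 (plus) and Npy2r chr3:82538383-82548084 (minus). None of these overlapped another gene of the annotation. UMIs fell on exons and introns of the whole model.

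The comparison of genotypes asks whether these genes differ in TRα1+m mice. In edgeR's quasi-likelihood test of the library sums, fitted over all genes of each of 17 cell types and of Neurons_1 as a whole, 0 of 108 tests of these genes passed an adjusted p of 0.05, beside 0.00835% of all tests. At an unadjusted p under 0.05 there were 8 of 108 (beside 1.88% of all tests), and DESeq2 called 0 as well. The filter on low counts left 7 of the 10 genes for testing in NPY/AgRP and in POMC/CART, and Mc3r, Mc4r and Ghsr were tested in 2, 3 and 1 of the 17 cell types. Fewer nuclei of a kind and less RNA per nucleus cannot be told apart by the sum of a mixed group.

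In NPY/AgRP, the log2 fold change of TRα1+m over WT was 0.03 ± 0.88 (SE) for Agrp and 0.29 ± 1.69 for Npy. Libraries of a genotype lay far apart, and in this fit, which does not use the repeats, the errors allowed changes of several fold either way. With the repeat as a block the values were 0.07 ± 0.12 and 0.36 ± 0.12. Among the receptors it was -0.36 ± 0.28 for Lepr, 0.35 ± 0.36 for Npy2r and 0.26 ± 0.67 for Npy1r. Pomc (1.11 ± 0.45) and Cartpt (-1.82 ± 0.69), neither of them a peptide these neurons are named for, were the 2 of 7 tested genes whose genotypes did not overlap, beside 29.2% of all tested genes. Pomc measured 23.0, 30.0, 31.8 and 84.6 CPM, above oligodendrocytes only in TRα1+m of repeat 2. Cartpt measured 56.6, 207, 40.9 and 37.0 CPM, above them only in WT of repeat 2. Without nuclei above free RNA for a peptide other than these neurons' own, Pomc measured 23.0, 13.3, 31.8 and 12.9 CPM and overlapped. Cartpt, at 56.6, 102, 40.9 and 25.7 CPM, did not.

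In POMC/CART, Pomc gave -0.12 ± 0.92 and Cartpt -0.93 ± 1.07. Lepr gave -1.07 ± 0.36 (unadjusted p = 0.0168, edgeR adjusted p = 1.00), with 55.4 and 36.0 CPM in WT and 21.7 and 21.5 CPM in TRα1+m. It was the 1 of 7 tested genes whose genotypes did not overlap, beside 27.6% of all tested genes. The nuclei above free RNA for Pomc held 33, 40, 12 and 16 of these Lepr UMIs, and the others 7, 5, 3 and 1. The same order in both parts (values above) is therefore no separate support, as the first part holds most of the whole. Npy1r (0.23 ± 0.32) and Npy2r (0.53 ± 0.44) overlapped.

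The genotype effect in the peptide neurons was also set against that in oligodendrocytes of the same libraries, the gauge of free RNA, and 0 of 8 genes passed in NPY/AgRP (beside 0.216% of all) and 0 of 8 in POMC/CART (beside 0.187%). For Npy the difference of effects was 0.28 ± 2.97 on the log2 scale, and for Pomc -0.03 ± 1.24. This fit has no term for a repeat difference that varies between cell types, and such a difference adds to its error. Npy moved in opposite directions between repeats in NPY/AgRP and in oligodendrocytes (below). With errors of this size, 0 of 8 does not show that the effects are alike.

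With the experimental repeat as a block, which leaves 1 residual degree of freedom against 2, edgeR called 9 of the 108 tests, beside 0.706% of all. Of these 8 were lower in TRα1+m, beside 0.404% of all tests called lower. DESeq2 with the same block called 0. In the peptides' own neurons, Cartpt in POMC/CART was called lower (-0.75 ± 0.12, edgeR adjusted p = 2.03e-06), yet its levels went up in repeat 1 (193 to 224 CPM) and down in repeat 2 (1100 to 467 CPM). Agrp and Npy (adjusted p = 0.318) in NPY/AgRP and Pomc in POMC/CART (-0.09 ± 0.10) were not called. Lepr in POMC/CART gave -1.06 ± 0.31 with an adjusted p of 0.0908.

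The other calls of the block lay outside the neurons that make the peptide. Pomc was called lower in Orexin+ (-3.31 ± 0.43, edgeR adjusted p = 3.27e-11), MCH (-1.45 ± 0.25), Microglia (-1.24 ± 0.27), Glutamatergic_2 (-0.89 ± 0.19) and Astrocytes (-0.74 ± 0.18). Cartpt was called lower in NPY/AgRP (-1.81 ± 0.33, adjusted p = 0.0355) and in oligodendrocytes (-0.67 ± 0.18, adjusted p = 0.0218), and Npy higher in Microglia (2.06 ± 0.27). Genotypes did not overlap in 4 of the 9, beside 26.2% of all tests and 84.2% of all tests that the block called. The direction was the same in both repeats in 7, beside 99.1% of all tests that the block called. In Microglia, summed pituitary markers (10 genes, 1 at 0) came to 285, 1636, 111 and 898 CPM, lower in TRα1+m in both repeats. Without nuclei carrying pituitary genes, Pomc in Microglia gave -1.60 ± 0.90 in the fit without the block, against -1.47 ± 0.86 with them. In MCH, the endothelial and mural markers given above were higher in TRα1+m in both repeats, and their part in the lower Pomc was not tested.

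Several of these rested on a few nuclei. In Orexin+, Pomc measured 24.4, 161, 4.65 and 13.9 CPM, and 1 nucleus of the WT library of repeat 2 held 108 UMIs, 95.6% of that library's. In MCH (25.2, 163, 16.6 and 43.4 CPM) the richest nucleus of that library held 107 UMIs, and in Glutamatergic_2 (11.8, 36.6, 8.75 and 18.2 CPM) 179. Nuclei above free RNA for a peptide that does not name their cell type were then left out, an alternative added after seeing the data. Nuclei above free RNA for Cartpt alone were kept in MCH, Glutamatergic_1 and GABA, although Cartpt does not name these cell types. Pomc fell from 161 to 7.33 CPM in that Orexin+ library, where too few UMIs remained for a test, and from 163 to 41.9 CPM in that MCH library. Cartpt in POMC/CART kept its value, as no nuclei were left out there. In MCH 0, 6, 1 and 1 nuclei were left out, and in NPY/AgRP 0, 7, 0 and 3. In oligodendrocytes it was 0, 8, 2 and 2. The nuclei were chosen by their counts of the peptides tested, so the adjusted p-values after this step are no check of the calls. Of the other 8 calls, 3 were under the threshold: Pomc in MCH (-1.21, adjusted p = 0.0372) and Cartpt in NPY/AgRP (-1.34, adjusted p = 0.00127) and in oligodendrocytes (-0.56, adjusted p = 0.0161). Npy in Microglia went to 0.75 ± 0.30 (adjusted p = 0.702) without the nuclei described above. For Cartpt in NPY/AgRP, oligodendrocytes of the same libraries moved in the same direction, at 132, 108, 114 and 40.8 CPM, and the part of free RNA in that call was not tested.

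The share of all Neurons_1 nuclei above free RNA differed less between genotypes than between repeats. For Agrp it was 0.157%, 1.29%, 0.113% and 1.01%, and for Npy 0.136%, 1.85%, 0.122% and 1.88%. For Pomc it was 0.523%, 1.33%, 0.490% and 1.11%, and for Cartpt 0.303%, 4.37%, 0.461% and 3.30%. Within each repeat it was lower in TRα1+m for Agrp and Pomc, and it went both ways for Npy and Cartpt. Exact two-sided permutation tests gave p = 0.667, 1.00, 0.667 and 1.00, and with 2 libraries against 2 they cannot go below 0.333. They also do not use the pairing by repeat, so they cannot decide whether the genotypes differ. The libraries sorted by repeat in each peptide.

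The contrast of repeat 2 with repeat 1, added after seeing the data, was therefore fitted in the same edgeR model. It called 49 of the 108 tests, beside 15.4% of all, and DESeq2 called 19, beside 3.97% of all. In NPY/AgRP, Npy was higher in repeat 2 by 2.70 ± 0.12 on the log2 scale (adjusted p = 1.2e-09), Agrp by 1.42 ± 0.13 (adjusted p = 8.12e-06) and Cartpt by 1.27 ± 0.32 (adjusted p = 0.035). These were 3 of 7 tested genes, beside 4.26% of all. Cartpt, at 56.6, 207, 40.9 and 37.0 CPM, rose in repeat 2 in WT and fell in TRα1+m. A single nucleus held 22.8% of its UMIs in the WT library of repeat 2. Lepr, at 166 and 152 CPM in repeat 1 and 143 and 95.2 CPM in repeat 2, did not pass, nor did Npy2r (0.78 ± 0.23, adjusted p = 0.0691).

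In POMC/CART, 5 of 7 tested genes passed, beside 8.61% of all. Pomc was higher in repeat 2 by 1.60 ± 0.10 (edgeR adjusted p = 6.91e-56), Cartpt by 1.79 ± 0.12 (adjusted p = 1.72e-44) and Npy1r by 0.67 ± 0.19 (adjusted p = 0.00974). Npy (-1.36 ± 0.41) and Agrp (-0.86 ± 0.28), the peptides of the other population, were lower. In oligodendrocytes, 3 of 6 passed, beside 12.4% of all, and all 3 were lower, beside 7.27% of all called lower: Npy (-1.33 ± 0.19), Agrp (-1.19 ± 0.23) and Cartpt (-0.83 ± 0.18). Pomc in oligodendrocytes, at 37.0 and 41.4 CPM in repeat 1 and 40.5 and 27.3 CPM in repeat 2, did not pass. Without the 0, 8, 2 and 2 oligodendrocytes above free RNA for a peptide, it measured 37.0, 27.8, 37.0 and 17.4 CPM in the 4 libraries. It was then lower in repeat 2 in both genotypes, and the contrast was not refitted. Repeat 2 thus had more of each population's own peptides and less Agrp, Npy and Cartpt in oligodendrocytes.

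Across the 17 cell types, Agrp was higher in repeat 2 in NPY/AgRP alone and lower in 10 of the 17 where it was tested. Npy was higher in 3 (NPY/AgRP, CART_1 and Microglia) and lower in 7 of 14. Pomc was higher in 6 and lower in 0 of 15, and Cartpt higher in 5 and lower in 3 of 17. Without nuclei above free RNA for a peptide that does not name their cell type, Pomc measured 13.3, 12.2, 14.1 and 9.41 CPM in GABA. Glutamatergic_2 then had 10.6, 10.1, 8.75 and 7.52 CPM and Microglia 40.7, 20.0, 52.3 and 19.2 CPM. In each of these it was lower in repeat 2 in both genotypes. MCH (25.2, 41.9, 13.1 and 15.5 CPM) stayed higher in repeat 2, and Orexin+ (24.4, 7.33, 4.65 and 13.9 CPM) went both ways. The contrast was not refitted without these nuclei. Of all tests in the 18 fits, 15.4% were called. In Microglia, Npy measured 48.6, 25.6, 58.7 and 282 CPM and Pomc 40.7, 197, 52.2 and 34.0 CPM. The genotypes thus moved in opposite directions there, as for Cartpt in NPY/AgRP. Over all Neurons_1 nuclei, 6 of the 10 genes passed, beside 25.2% of all, and all 6 were higher in repeat 2, beside 13.2% of all called higher: Npy (1.45), Pomc (1.68), Ghsr (1.23), Mc3r (0.93), Npy2r (0.80) and Npy1r (0.71). Median depth was also higher in repeat 2 libraries, and its part, like that of free RNA, in these differences was not tested.

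Other genes of the pathway were taken from a list of 43, of which 42 were in the feature table and 38 passed the filter in some cell type. Between genotypes 0 of their 437 tests passed, beside 0.00835% of all. With the block 6 did, beside 0.706% of all tests called and 0.404% called lower, and all 6 were lower in TRα1+m: the prohormone convertase Pcsk2 in GABA (-0.31), Glutamatergic_2 (-0.41) and oligodendrocytes (-0.56), the calcitonin receptor Calcr in GABA (-0.43), and Atrn (-0.80) and the leptin-signalling kinase Jak2 (-0.63) in oligodendrocytes. In NPY/AgRP 21 were tested, with a median log2 fold change of -0.03, and in POMC/CART 23, with a median of -0.04, against 0.00 over all tested genes in both. In NPY/AgRP the largest values were those of the transcription factor Nr5a2 (1.22 ± 0.39), at 21.2, 42.6, 97.7 and 61.7 CPM, and the serotonin receptor Htr2c (0.93 ± 0.54), at 37.2, 40.3, 31.8 and 116 CPM. In POMC/CART they were those of the growth factor Bdnf (0.78 ± 0.52), at 6.93, 8.81, 14.4 and 13.9 CPM, and Jak2 (-0.74 ± 0.29), at 56.8, 69.7, 44.8 and 33.0 CPM. None of these passed.

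Between repeats, 0 of the 21 passed in NPY/AgRP, beside 4.26% of all tested genes, and 4 of the 23 in POMC/CART, beside 8.61%. Mrap2 (0.95), an accessory protein of melanocortin receptors, Npy5r (0.72) and the Pomc-cleaving Pcsk1 (0.64) were higher in repeat 2, and Pcsk2 (-0.61) was lower.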

How the data were processed

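Nuclei from pools of 3 hypothalami were profiled with 10x V3.1 chemistry. The authors counted UMIs per gene, introns included, with Cell Ranger 5.0.1 (mm10) and deposited these counts. They kept nuclei with at least 900 counts, filtered doublets and named the clusters with Seurat. The deposited counts and annotation were used as they are, and no further doublet caller was run. Counts were summed per library and cell type (at least 10 nuclei in every library) and tested with edgeR 4.0.16 (R 4.3.3; TMM, filterByExpr, robust quasi-likelihood, genotype only), with p adjusted by Benjamini-Hochberg over all genes of a cell type. The Non-neuronal cluster had enough nuclei (57, 36, 80 and 34) but was left out of the tests and of the ranking of cell types. DESeq2 1.42.0 was an alternative. The library is the replicate (n = 2 per genotype).

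Repeat numbers pair the libraries, as the study describes 2 independent repeats with both genotypes in each. The differences between repeats correlated between genotypes in all 18 fits (r = 0.312 to 0.668 across genes). The blocked fit was an alternative. Named genes were the 10 members, the pathway list, the 2 genes most alike to each member (1 of Npy2r's is not reported here) and, of the pathway list, those past a test and the 2 largest changes in NPY/AgRP and in POMC/CART. Members and lists were chosen with earlier results of these data known.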

Additional observations from a re-analysis of the deposited data

Results flagged for a closer look

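Some cell types had too few nuclei in a library to be tested, and in 5 of their libraries a gene stood above the level that oligodendrocytes of the same library showed. Cartpt reached 450 CPM in the 19 CART_2 nuclei of the WT library of repeat 2 (58 UMIs, 95% exact Poisson interval 341 to 581), against 108 CPM in oligodendrocytes. Npy reached 76.1 CPM in the 852 Neurons_2 nuclei of the TRα1+m library of repeat 2 (214 UMIs, 66.2 to 87.0), against 24.6 CPM, and 12 nuclei above free RNA held 134 of those UMIs. Lepr was at 20.6 CPM in the 36 VLMC (vascular and leptomeningeal) nuclei of that library from 2 UMIs (2.49 to 74.2), against 0.396 CPM. In the unnamed neuronal sub-cluster 11, Lepr was at 11.3 CPM in the WT library (6 UMIs, 4.16 to 24.7, against 1.54 CPM) and at 10.2 CPM in the TRα1+m library (8 UMIs, 4.40 to 20.1, against 1.11 CPM) of repeat 1. These intervals cover counting error within 1 library, and the causes were not tested.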

How the results depend on the processing

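The count of 0 tests of these genes passing between genotypes stayed at 0 with RLE factors, DESeq2, DESeq2 with the block, the bias-adjusted fit and without nuclei carrying pituitary genes or, unblocked, those above free RNA. It became 2 without the filter on low counts, 9 with the replicate block, 4 with the block and without nuclei above free RNA, and 0 to 4 when 1 library was left out (4 without WT replicate 1, 0 without WT replicate 2, 3 without TRα1+m replicate 1 and 1 without TRα1+m replicate 2). Over all genes the 18 calls became 84 with DESeq2, 211 with DESeq2 and the block, 283 without the filter, 1522 with the replicate block, 1394 with the block and without nuclei above free RNA, and 47 to 391 with a library left out. The 0 of 8 in the comparison of NPY/AgRP with oligodendrocytes became 0 to 1. For repeat 2 against repeat 1, the 49 tests became 19 and the 33260 genes became 8566 with DESeq2.

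Direction turned for Agrp in NPY/AgRP without the filter (-0.0085) and for Pomc in Microglia without nuclei above free RNA (0.31, or 0.20 with the block). With a library left out, the log2 fold change ran from -0.77 to 1.00 for Agrp, -1.53 to 2.29 for Npy and -0.091 to 1.08 for Npy2r in NPY/AgRP. It ran from -1.08 to 0.93 for Pomc, -1.68 to 0.78 for Cartpt and -0.28 to 0.58 for Npy1r in POMC/CART, and for Pomc from -1.52 to 0.12 in Glutamatergic_2, -2.51 to 0.078 in MCH and -2.15 to 0.062 in Microglia. Among calls of the block, values without it ran from -2.43 to -0.60 for Cartpt in NPY/AgRP, -1.48 to -0.029 for Cartpt in oligodendrocytes, -4.42 to -1.46 for Pomc in Orexin+, -1.24 to -0.35 for Pomc in Astrocytes and 0.70 to 2.93 for Npy in Microglia. Lepr stayed between -1.40 and -0.75 in POMC/CART and ran from -0.75 to -0.036 in NPY/AgRP. Of 215 alternative values of named fold changes, 177 kept direction and side of the threshold, 23 passed it newly and 15 turned. The cause of these changes was not tested.

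Levels in POMC/CART moved by more than 1 SD with the split by Pomc, to 6242 CPM (above free RNA) and 66.3 CPM (others) for Pomc, 1139 CPM for Cartpt, 2.67 CPM for Mc3r, 1.86 and 5.03 CPM for Mc4r and 128 CPM for Npy1r in the nuclei above free RNA and, for Mc4r, the others. Mc4r fell to 2.61 CPM with oligodendrocytes subtracted. Without thinning, the shares of nuclei with a UMI in the leading cell type were 89.6% for Agrp, 39.2% for Pomc, 39.7% for Cartpt, 2.08% for Mc3r, 1.69% for Mc4r, 41.6% for Lepr, 3.92% for Ghsr, 29.0% for Npy1r and 39.0% for Npy2r, since deeper nuclei show more genes. Mc3r, Mc4r and Ghsr, at 0 to 11 UMIs per library in the peptide neurons, are limited by depth. The p-values of the genotype fits without the block rest on the spread between 2 pools of 3 mice per genotype. Those of the blocked fits and of the repeat contrast rest on the spread left after genotype and repeat are fitted, with 1 residual degree of freedom. In all of these fits the errors draw in part on those of other genes.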
